A study of Homo sapiens with 6 samples.

Results

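The genes described here are 40 genes of the extracellular matrix, of cell adhesion and of the mesenchymal cell state, chosen by name: collagens, laminins, matrix glycoproteins, a matrix protease and its inhibitors, integrins, cadherins and other adhesion molecules, vimentin and 5 transcriptional regulators. They were read in SH-SY5Y, an established human neuroblastoma cell line with noradrenergic, neuron-like features. The series compares 3 cultures left untreated with 3 cultures given 100 µM manganese for 24 h, a dose that the labels set at a fixed fraction of the lethal concentration. The medium of all 6 cultures mixed MEM with F12 and held fetal bovine serum, one array was hybridised per culture, and no genetic change is named for any group. Per the labels the 3 arrays of each group come from biological replicates. Nothing says whether cultures were started separately or arrays run together, so the p-values measure only the spread between these arrays.

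All 40 genes had at least 1 probe set annotated to that gene alone, 162 probe sets in all. The filter kept a probe set that exceeded its own array's 40th percentile on 3 or more of the 6 arrays, which 86 of the 162 did. They represented 34 of the 40 genes, out of 13407 genes tested in the whole series, and the brightest kept probe set stood for each gene. Values are log2 expression values, so a difference of 1 is a doubling. COL3A1, CCN2, ITGA1, ITGA6, CD44 and YAP1 had no probe set past the filter.

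The extracellular matrix is the protein mesh that cells secrete and hold on to. Collagens and laminins give it strength and sheets, glycoproteins such as fibronectin link it to cells, and integrins are the cell surface receptors that bind it. Cadherins and the immunoglobulin-type molecules NCAM1 and L1CAM join cells to each other, and in neuroblasts guide clustering and axon growth. Neuroblastoma cells are known to occupy a noradrenergic or a mesenchymal state. The mesenchymal state is marked by vimentin, fibronectin, CD44, PRRX1, SNAI2 and YAP1 activity, and SH-SY5Y is usually placed on the noradrenergic side.

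The cells matched the noradrenergic description. All 9 measured marker genes of noradrenergic neuroblasts, among them HAND2, GATA3 and DBH, lay above the 40th percentile on all 6 arrays, with mean log2 levels of 11.05 to 11.07 on control arrays and 10.96 to 11.00 on manganese arrays. Of 5 fibroblast markers 3 passed the filter, while LUM and POSTN lay below the 40th percentile on every array. The mean level of those 5 was 5.10 to 5.31 on control arrays and 4.96 to 5.04 on manganese arrays. PDGFRA, a growth factor receptor of mesenchymal cells, differed most, with means of 5.88 and 5.07, a difference of -0.82 that was -0.35 against control 2. POSTN and DCN differed by -0.28 and -0.14, and LUM and THY1 went the other way, at 0.17 and 0.07. Epithelial markers averaged 4.71 to 4.99 in control and 5.00 to 5.12 in manganese, with EPCAM and CDH1 below the 40th percentile on every array. For these 3 lists the 2 groups did not overlap in mean level, though the genes within a list differed in sign. Of the noradrenergic markers 6 were lower and 3 higher, from -0.58 for ISL1 to 0.22 for PHOX2A. Epithelial markers ran from -0.06 for CDH1 to 0.50 for KRT19, which was 0.07 against control 2. The part of these 3 lists in the results below was not tested. Endothelial, Schwann cell and leukocyte lists overlapped between the groups, with PTPRC and CD14 below the 40th percentile throughout. In a bulk sample fewer cells of one kind and less RNA per cell cannot be told apart.

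Control 1 was unlike the rest, correlating with the other arrays at 0.967 to 0.981 across genes, which are not independent replicates. RNA spike-ins added before labelling averaged 5.98 on control 1 and control 3 and 7.83 on control 2 and the manganese arrays. For some genes the difference from control 2 alone, the control with a spike-in signal like that in manganese, is given as well.

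No matrix or adhesion gene passed the test of manganese against control, limma with Benjamini-Hochberg adjustment over all genes at an adjusted p of 0.05. Of all tested genes 0.142% passed, 19 in number. At an unadjusted p under 0.05 there were 6 of the 34, or 17.6%, beside 12.8% of all tested genes. VIM, TIMP1 and ZEB1 were the 3 on the higher side in manganese (background 5.97%), and ITGAE, CDH11 and TIMP3 the 3 on the lower side (background 6.85%). The median log2 fold change of the 34 was -0.03, beside 0.02 for all tested genes, and 16 of the 34 were positive, or 47.1%, beside 54.1%. Groups did not overlap for 9 of the 34, or 26.5%, beside 19.8% of all tested genes. The share of members that differed was thus close to the background.

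**Figure D1:**
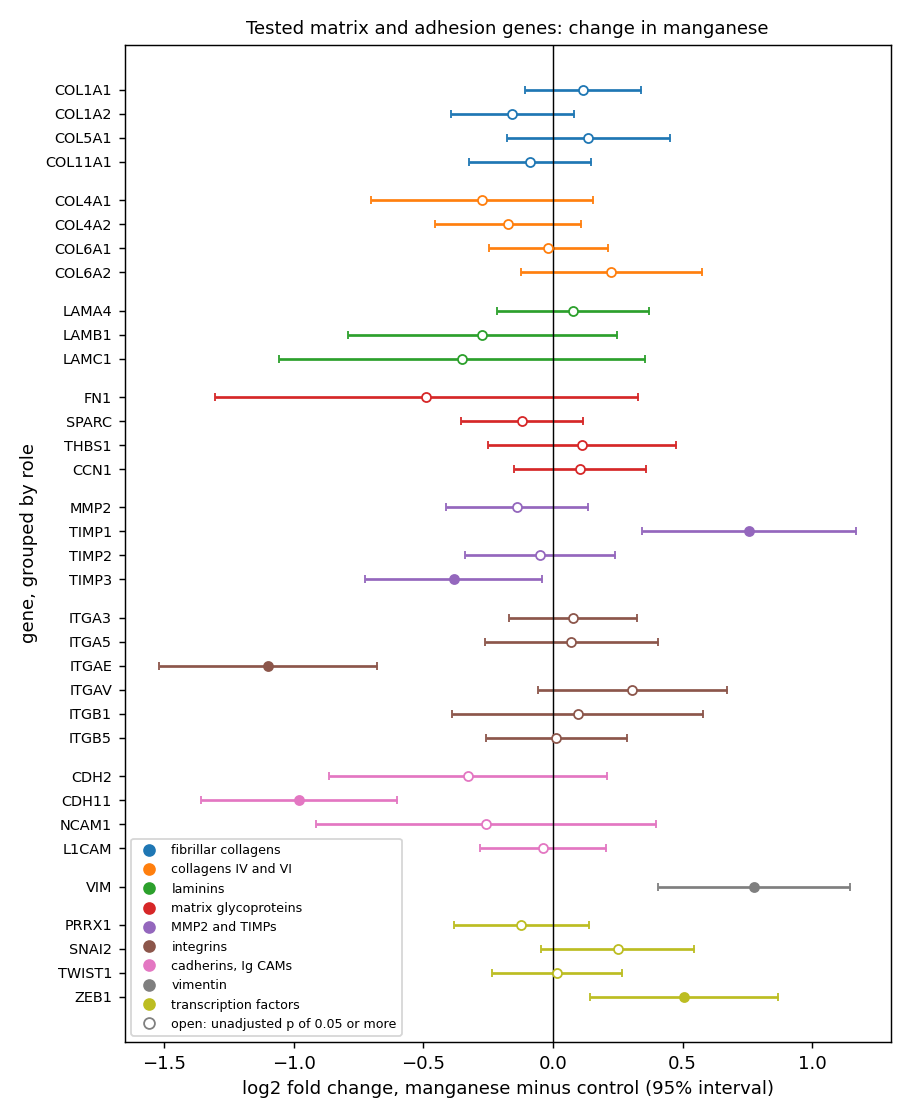
Log2 fold change of the 34 tested genes, manganese minus control, with 95% intervals from limma, grouped and coloured by role. Filled points have an unadjusted p under 0.05, and the 6 filled points are TIMP1, VIM and ZEB1 to the right of 0 and ITGAE, CDH11 and TIMP3 to the left.

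Promoter sequences are shown for the members with an unadjusted p under 0.05 that have a single promoter entry in RefSeq (GRCh38.p14), to set the higher genes VIM and TIMP1 beside the lower genes ITGAE and TIMP3. Each is the 250 bases just before the annotated transcription start, 5′ to 3′ on the gene's strand. Capitals mark every GC box, GGGCGG in either orientation, a motif bound by factors of the Sp family.
VIM, chr10:17227991-17228240, plus strand: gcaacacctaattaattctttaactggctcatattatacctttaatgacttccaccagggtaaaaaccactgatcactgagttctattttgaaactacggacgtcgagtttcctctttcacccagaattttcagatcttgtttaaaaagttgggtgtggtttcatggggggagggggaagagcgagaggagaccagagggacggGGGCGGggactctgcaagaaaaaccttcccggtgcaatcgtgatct
TIMP1, chrX:47582186-47582435, plus strand: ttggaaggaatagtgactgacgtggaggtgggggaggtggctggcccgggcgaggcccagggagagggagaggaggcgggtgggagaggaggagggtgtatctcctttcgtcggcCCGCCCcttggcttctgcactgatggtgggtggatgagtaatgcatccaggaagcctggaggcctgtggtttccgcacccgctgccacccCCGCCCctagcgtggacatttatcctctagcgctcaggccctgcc
ITGAE, chr17:3801189-3801438, minus strand: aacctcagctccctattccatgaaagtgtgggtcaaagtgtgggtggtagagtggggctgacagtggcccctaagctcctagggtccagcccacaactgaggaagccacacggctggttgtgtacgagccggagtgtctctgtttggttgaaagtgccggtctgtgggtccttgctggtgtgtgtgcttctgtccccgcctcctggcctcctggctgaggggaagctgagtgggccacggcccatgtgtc
TIMP3, chr22:32801455-32801704, plus strand: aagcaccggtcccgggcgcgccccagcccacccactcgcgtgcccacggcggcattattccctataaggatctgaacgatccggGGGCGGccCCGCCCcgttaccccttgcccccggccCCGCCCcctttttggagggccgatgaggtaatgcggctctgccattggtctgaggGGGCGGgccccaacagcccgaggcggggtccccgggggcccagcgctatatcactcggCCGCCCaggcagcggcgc
The window of VIM held 1 GC box, that of TIMP1 held 2, that of TIMP3 held 5 and that of ITGAE held 0. Among all 35116 promoter entries 42.6% held a GC box in this window. ZEB1 has 7 entries and none is printed, and CDH11 was not matched in the table, which held 28 of the 40 genes. Other motifs were searched on both strands: the E-box CAGGTG read by ZEB1 and SNAI2 (17.5% of all entries), the AP-1 motif TGANTCA (6.57%), the TEAD motif GGAATG (11.9%) and the metal response element core, TGCACNC or TGCGCNC (24.8%). None of these 4 motifs occurred in the 4 printed windows. Of the 42 promoter entries of members, 29 held a GC box. The E-box was in 4 of the 42, the AP-1 motif in 1, the TEAD motif in 6 and the metal response element core in 5. The TEAD motif was held by ITGA5, ITGB1, SPARC, THBS1, YAP1 itself and CCN2, the textbook target of the YAP1 partner TEAD. Whether these counts differ from the shares of all entries was not tested. A match is only a description of the letters.

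Vimentin, the intermediate filament protein that defines mesenchymal cells and is also made by immature neurons, had the largest positive difference. VIM read 10.71, 10.50 and 10.21 on control arrays 1 to 3 and 11.33, 11.02 and 11.40 on manganese arrays 1 to 3. Every manganese array lay above every control array. The log2 fold change was 0.77 with an SE of 0.16 (95% interval 0.40 to 1.14), a 1.71-fold difference, with a limma adjusted p of 0.152. Its second probe set gave 0.69, also with no overlap, and against control 2 alone the difference was 0.75. Control 1 was the highest of the 3 controls for VIM, so leaving it out gave a larger difference, 0.89.

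TIMP1, a secreted inhibitor of matrix metalloproteinases, read 7.05, 7.69 and 7.63 on the controls and 8.23, 8.09 and 8.32 on the manganese arrays. The groups did not overlap, and control 1 was the lowest array. The log2 fold change was 0.76 (SE 0.18, 0.34 to 1.17), and limma gave an adjusted p of 0.196. The difference was 0.52 against control 2 and 0.55 without control 1. Its other probe sets gave 0.64 and, at a dimmer one, -0.02. TIMP1 lies within the span of SYN1, which encodes the synaptic vesicle protein synapsin, and SYN1 differed by 0.35, or 0.19 against control 2.

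The other inhibitors gave different values. TIMP3, the inhibitor that stays bound to the matrix, read 5.43, 5.09 and 5.02 on the controls and 4.61, 4.85 and 4.93 on the manganese arrays. Its groups were separate but close, with a log2 fold change of -0.38 (SE 0.15, limma adjusted p = 0.357), and its other kept probe set gave -0.08. TIMP2, which also helps to activate MMP2, read 11.58, 11.30 and 11.42 against 11.23, 11.41 and 11.52, a difference of -0.05. Its second probe set disagreed, at 8.68, 9.24 and 9.06 against 9.44, 9.41 and 9.44, a difference of 0.44 with no overlap. MMP2, the gelatinase that cuts basement membrane collagen, differed by -0.14 (-0.41 to 0.14), with probe sets from -0.40 to -0.04. So 1 inhibitor lay on the higher side, 1 on the lower side, and the interval of the protease held 0.

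**Figure D2:**
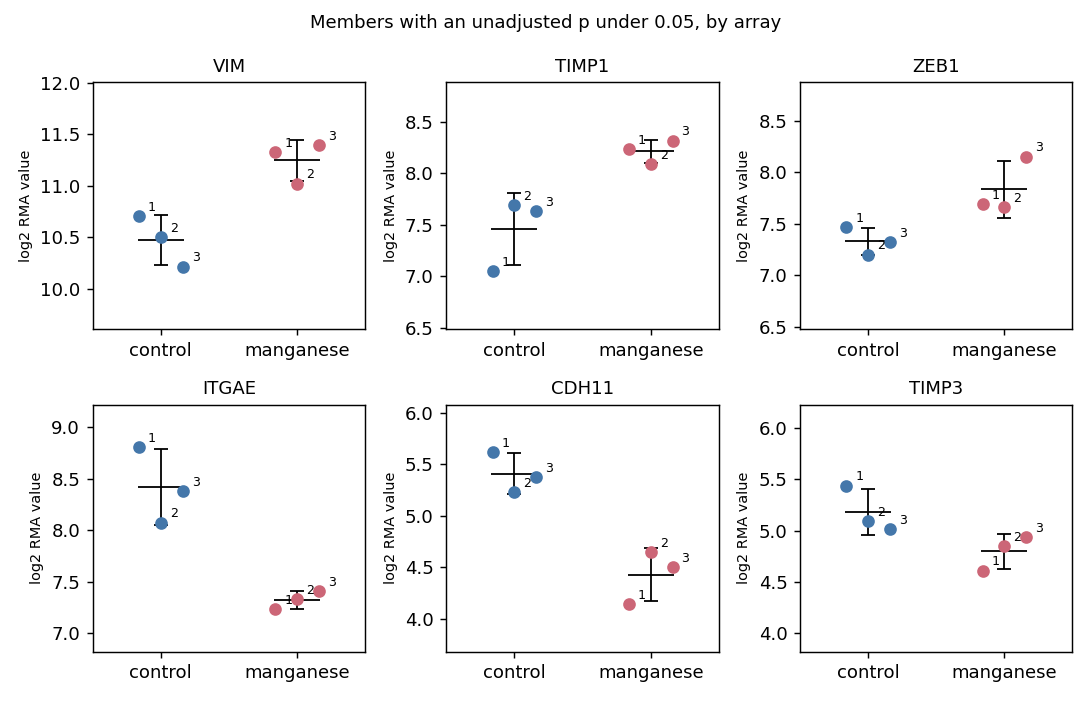
Log2 RMA value on each array for the 6 members with an unadjusted p under 0.05. Points are arrays with their replicate numbers, and the bars are the mean and SD of 3 arrays. In every panel the 2 groups are separate, with the narrowest gap for TIMP3, where control 3 is at 5.02 and manganese 3 at 4.93.

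Among integrins, ITGAE had the most negative difference. ITGAE encodes the alpha E chain (CD103), known as a receptor for E-cadherin on lymphocytes of epithelia. It read 8.81, 8.07 and 8.38 on the controls and 7.23, 7.33 and 7.41 on the manganese arrays. All controls lay well above all manganese arrays, and control 1 was again the extreme. The log2 fold change was -1.10 with an SE of 0.18 (-1.52 to -0.68), a 2.14-fold difference, with a limma adjusted p of 0.107. With each array centred on its median the adjusted p was 0.0199, and without control 2 it was 0.0290, in a range of 0.0199 to 0.553 over the alternatives run. Against control 2 alone the difference was -0.75, and without control 1 it was -0.90. The gene has 1 probe set on the array. Its beta partner ITGB7 differed by 0.02, and its ligand CDH1 lay below the 40th percentile on every array. HASPIN, a mitotic kinase gene that lies within the span of ITGAE, differed by -0.16.

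The matrix-binding integrins gave smaller differences at their brightest probe sets. ITGB1, the beta chain shared by most collagen, laminin and fibronectin receptors, read 10.87, 10.23 and 10.42 on the controls and 10.40, 10.44 and 10.97 on the manganese arrays, so control 1 and manganese 3 were both high. Its difference was 0.10 (-0.39 to 0.58) and 0.37 against control 2, with probe sets from -0.10 to 0.35. ITGAV, which pairs with ITGB5 or ITGB1 to bind vitronectin and fibronectin, read 5.65, 5.51 and 5.70 against 5.67, 5.86 and 6.25. That is a difference of 0.31 (-0.06 to 0.67), with manganese 3 the highest array. ITGB5 differed by 0.01, ITGA3, a laminin receptor chain, by 0.08, and ITGA5, the fibronectin receptor chain, by 0.07. The other kept probe set of ITGA3, a dimmer one, gave 0.38 with separate groups. ITGA1, ITGA6 and CD44, the hyaluronan receptor, were below the 40th percentile on all 6 arrays with every probe set. The brightest of the 10 CD44 probe sets read 3.95 to 4.32 on controls and 4.15 to 4.24 on manganese arrays.

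CDH11 was the cadherin that differed most. CDH11, a cadherin of mesenchymal cells, read 5.62, 5.23 and 5.37 on the controls and 4.14, 4.65 and 4.50 on the manganese arrays. The groups were separate, and on manganese 1 the signal was under that array's 40th percentile. The log2 fold change was -0.98 with an SE of 0.16 (-1.36 to -0.60), with a limma adjusted p of 0.110. With arrays centred on their medians the adjusted p was 0.0344, in a range of 0.0344 to 0.460 over the alternatives. The difference was -0.80 against control 2. The other 5 probe sets of CDH11 did not pass the filter and ranged from -0.31 to 0.14, so the result comes from 1 probe set near background.

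CDH2, the N-cadherin of neural cells, had a different pattern. It read 9.69 on control 1 and 8.74 and 8.98 on the other controls, against 8.67, 8.77 and 8.99 on the manganese arrays. Without control 1 its difference of -0.33 became -0.05. The second, dimmer probe set of CDH2 read 7.01, 6.39 and 6.29 against 6.22, 6.19 and 6.17. That is a difference of -0.37 with separate groups, so every control lay above every manganese array there. NCAM1, the neural cell adhesion molecule, read 10.58, 9.45 and 9.96 on the controls and 9.49, 9.60 and 10.12 on the manganese arrays, with control 1 again highest. Its difference of -0.26 was 0.03 without control 1 and 0.29 against control 2, and its kept probe sets ranged from -0.26 to 0.12. L1CAM, which guides axons, read 10.80 to 10.88 on controls and 10.70 to 10.91 on manganese arrays. Its probe sets gave -0.04 and 0.04.

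Of the 5 basement membrane members, LAMC1, LAMB1, COL4A1 and COL4A2 read highest on control 1 and LAMA4 lowest. LAMC1, the gamma chain present in most laminins, read 8.99 on control 1, 7.76 and 7.85 on the other controls, and 7.74, 7.74 and 8.07 on the manganese arrays. LAMB1, the matching beta chain, read 8.94 on control 1, 8.11 and 8.44 on the others, and 7.97, 8.21 and 8.51 in manganese. The other kept probe set of LAMB1, a dimmer one, disagreed. It read 5.15, 5.42 and 5.41 against 5.41, 5.44 and 5.62, a difference of 0.16 with control 1 the lowest array. With the brightest probe sets the differences of -0.35 for LAMC1 and -0.27 for LAMB1 were 0.05 and -0.05 without control 1. COL4A1, the collagen that forms the basement membrane network, read 7.60, 6.95 and 7.19 against 6.89, 6.81 and 7.21, a difference of -0.27 (-0.70 to 0.15) that was 0.02 against control 2. Its partner chain COL4A2 differed by -0.17, with all 3 of its probe sets between -0.19 and -0.15, and by -0.01 against control 2. LAMA4, a laminin alpha chain of vessels and nerve, differed by 0.08. Its kept probe sets ranged from -0.03 to 0.23, and the one at 0.23 had separate groups.

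Fibronectin varied more than any other member among the controls, with an SD of 0.73. FN1 read 7.07, 5.66 and 6.08 on the controls and 5.31, 6.00 and 6.04 on the manganese arrays. The groups overlapped, with control 1 highest and manganese 1 lowest. The log2 fold change was -0.49 (SE 0.35, -1.30 to 0.33), at a limma adjusted p of 0.576. Its 3 kept probe sets gave -0.49, -0.39 and -0.32. The difference was -0.09 without control 1 and 0.12 against control 2, so the side on which manganese lies was not settled.

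Control 1 was the highest of the 6 arrays for 13 of the 34 members, or 38.2%, beside 27.9% of all tested genes, and the lowest for 6, or 17.6%, beside 37.2%. Relative to the mean of the other 5 arrays it was 1.26 higher for FN1, 1.16 for LAMC1, 1.13 for ITGAE, 0.86 for CDH2, 0.85 for NCAM1, 0.84 for CDH11 and 0.70 for LAMB1. Without control 1 the difference at the brightest probe set was -0.90 for ITGAE and -0.87 for CDH11. It was between -0.09 and 0.05 for the other 5 of these 7. TIMP1, lower by 0.94 on control 1, was the largest departure the other way. The other 5 arrays include the 3 manganese arrays. For genes that differ between the groups, such as ITGAE, CDH11 and TIMP1, the value therefore also holds that difference. Among the controls alone ITGAE read 8.81, 8.07 and 8.38, CDH11 5.62, 5.23 and 5.37, and TIMP1 7.05, 7.69 and 7.63. The median SD within the control group was 0.15 for the members and 0.19 for all tested genes, and within the manganese group 0.13 and 0.11.

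**Figure D3:**
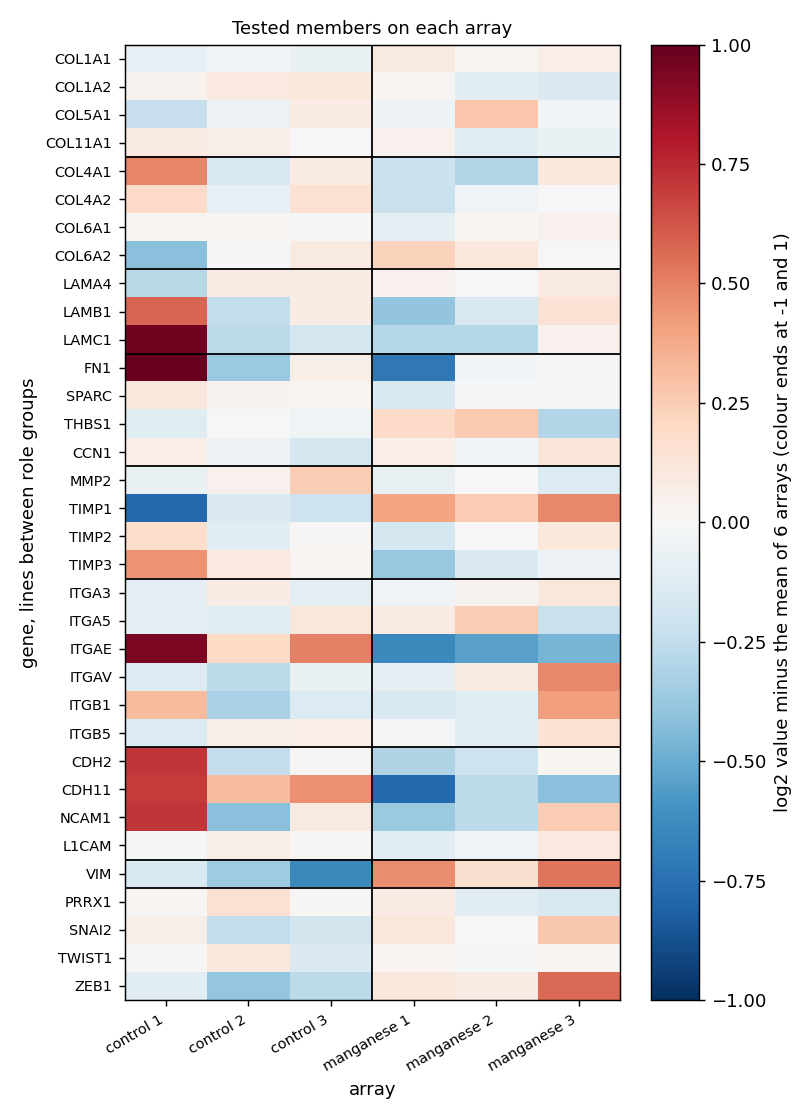
Log2 value of each of the 34 tested members on each array minus its mean over the 6 arrays, with lines between role groups. The control 1 column is deep red for LAMC1, FN1, ITGAE, CDH2, CDH11 and NCAM1 and blue for TIMP1, while ITGAE, CDH11 and VIM keep one colour across each group of 3 arrays.

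The fibrillar collagens lay not far above the 40th percentile and differed by at most 0.16. COL1A1, a chain of type I collagen, read 5.48, 5.53 and 5.49 against 5.65, 5.57 and 5.62, a difference of 0.12 (-0.11 to 0.34) with no overlap. COL1A2, the other chain of the same fibre, read 5.21, 5.27 and 5.28 against 5.20, 5.06 and 5.03, a difference of -0.16 (-0.39 to 0.08), also with no overlap. With their brightest probe sets the chains of one protein thus lay on opposite sides, each within an interval that holds 0. The other kept probe sets gave -0.03 and 0.20 for COL1A1 and -0.21 for COL1A2, all with overlapping groups. COL5A1, which starts fibril formation, differed by 0.14 and COL11A1 by -0.09. The other kept probe set of COL5A1 gave -0.06. COL3A1 was below the 40th percentile on every array, at 3.03 to 3.45 on controls and 3.32 to 3.48 in manganese. Of the beaded type VI collagen, COL6A1 differed by -0.02 and COL6A2 by 0.23 (-0.12 to 0.57), or 0.13 against control 2. The 6 probe sets of COL6A1 ranged from -0.02 to 0.19, and the one at 0.19 had separate groups.

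Matricellular proteins tune adhesion without building the matrix. SPARC, a collagen-binding glycoprotein, read 9.10, 9.03 and 9.02 against 8.84, 8.98 and 8.97, a difference of -0.12 with narrowly separate groups, while its 8 probe sets ranged from -0.32 to 0.22. THBS1, thrombospondin, differed by 0.11 (-0.25 to 0.47). CCN1, an immediate target of YAP1 and of serum, read 5.03, 4.91 and 4.80 against 5.04, 4.94 and 5.09, a difference of 0.11 (-0.15 to 0.36). CCN2, its close relative, read 3.32, 3.43 and 3.30 against 3.21, 3.28 and 3.33, below the 40th percentile throughout.

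Of the regulators of the mesenchymal state, ZEB1 alone had an unadjusted p under 0.05. YAP1, the coactivator of the Hippo pathway, read 3.85, 3.69 and 3.85 on the controls and 4.02, 3.76 and 3.83 in manganese with its brightest probe set. That is below the 40th percentile on every array, with all 8 probe sets between -0.07 and 0.27. TWIST1, a basic helix-loop-helix factor of neural crest, differed by 0.02 (-0.23 to 0.27), and PRRX1, a core factor of the mesenchymal neuroblastoma state, by -0.12. SNAI2, a zinc finger factor of neural crest migration, read 6.08, 5.78 and 5.83 against 6.13, 6.01 and 6.29, a difference of 0.25 (-0.05 to 0.54).

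ZEB1, a zinc finger repressor that drives epithelial cells to a mesenchymal form, depended on the probe set. The brightest one read 7.47, 7.20 and 7.32 on the controls and 7.69, 7.66 and 8.15 on the manganese arrays, with separate groups. Its log2 fold change was 0.51 (SE 0.16, 0.14 to 0.87), and the limma adjusted p was 0.292. The other 4 kept probe sets, all much dimmer, gave -0.24, -0.25, -0.69 and -0.73, and the lowest pair had separate groups in the opposite direction. No direction can be given for the gene as a whole. Across the members, 23 had more than 1 kept probe set, and for 12 of these the probe sets differed in sign or by more than 0.5.

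**Figure D4:**
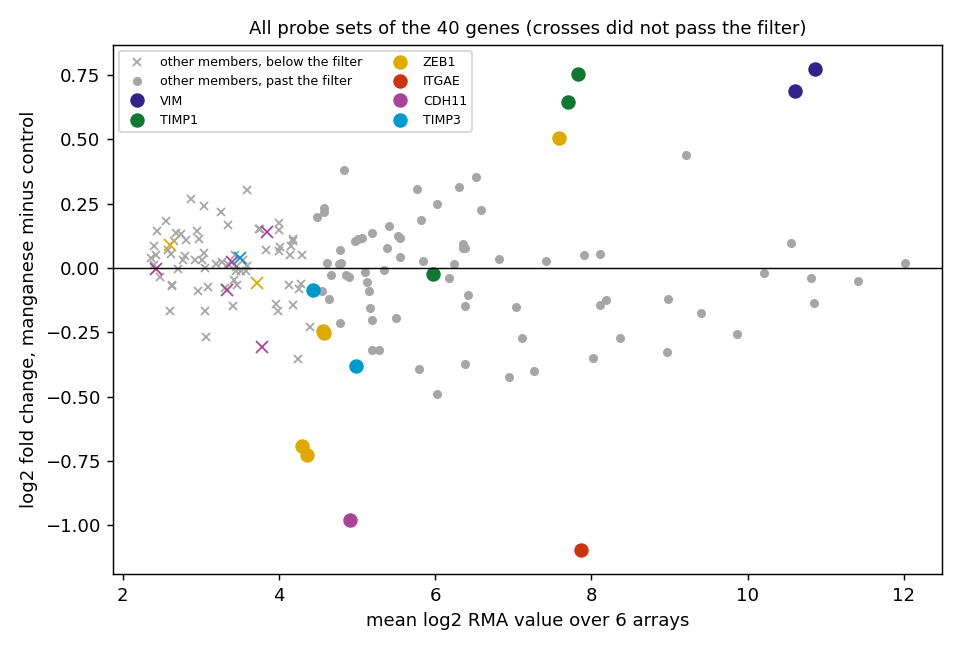
Log2 fold change of all 162 probe sets of the 40 genes against their mean log2 value over 6 arrays, with the 6 members of lowest p in colour. Both VIM probe sets lie near 0.7 to 0.8, the ZEB1 probe sets run from 0.51 down to -0.73, and the CDH11 point at -0.98 has only crosses, below the filter, for company.

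Other genes of the same pathways were read from 11 lists, 209 genes in all, of which 140 were tested. None passed the limma test at an adjusted p of 0.05, and 14 had an unadjusted p under 0.05, 10 higher and 4 lower, or 10.0% beside 12.8% of all tested genes. Their median log2 fold change was 0.04.

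Genes of collagen modification, not all of them enzymes, were the list with the most members on one side. At an unadjusted p under 0.05 there were 4 of 18 higher and 1 lower, or 27.8% beside 12.8% of all tested genes. The list had a median of 0.11. That median was 0.051 against control 2, and control 1 was the lowest array for 12 of the 18, or 66.7% beside 37.2%; its part in the result was not tested. Among the 4 on the higher side control 1 was the lowest array for LOXL2 and not for P4HA2, P4HA1 or TMEM38B. P4HA2, a collagen prolyl hydroxylase, was at 8.27 ± 0.08 in control and 8.93 ± 0.02 in manganese (SD, n = 3), a difference of 0.66 with a limma adjusted p of 0.0819. LOXL2, which cross-links collagen, differed by 0.57, and P3H1, a prolyl hydroxylase that acts at a different position of the proline ring, by -0.33. P4HA2 passed without control 1, at an adjusted p of 0.0428, with arrays centred, at 0.0467, and at 0.0482 when probe sets were averaged, a setting that left its own difference at 0.66, in a range of 0.0428 to 0.493 over the alternatives. Other collagens had 0 of 14 at that p and a median of 0.08, and other basement membrane genes 0 of 8 and a median of 0.02, with control 1 highest for 2 of the 8 and lowest for 4. In the second list NID1 was at -0.33 but at -0.05 against control 2, and LAMA1 at -0.38 but at 0.30.

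Other proteases and inhibitors had 1 of 22 on each side. PLAT, the tissue plasminogen activator, was 0.89 higher, at 6.84 ± 0.30 and 7.74 ± 0.22, and ADAMTS9, a matrix-cutting protease, was 1.08 lower on the log2 scale, at 8.94 ± 0.54 and 7.86 ± 0.15 (SD, n = 3). Their limma adjusted p-values were 0.142 and 0.188, and against control 2 the differences were 0.60 and -0.67. Other integrins had 0 of 11, and focal adhesion proteins 1 of 15, the actin-associated ZYX at 0.34, which was 0.13 against control 2 and 0.19 without control 1. Other cadherins and related molecules had 2 of 12, CNTN1 at 0.42 and MCAM at 0.25, and catenins 0 of 4.

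Of 15 genes of the YAP1 and TEAD pathway 2 were lower at an unadjusted p under 0.05, the DNA-binding partner TEAD1 at -0.57 and the kinase STK4 at -0.58, which were -0.21 and -0.24 against control 2. Of 12 genes of TGF-beta signalling 2 had an unadjusted p under 0.05. The inhibitor SMAD7 differed by 0.36, and by 0.46 against control 2. The ligand TGFB1, at 0.39, or 0.23 against control 2, lay below the 40th percentile on all 3 controls and entered the test only through the manganese arrays, so its count is no support. SMAD3 was at -0.61 but at -0.02 against control 2. Of 9 other mesenchymal transcription factors 0 reached that p, and SNAI1 had the smallest, with a difference of 0.30 and separate groups, which was 0.11 against control 2 and also 0.11 without control 1.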

How the data were processed

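Gene expression was measured on 6 one-colour Affymetrix arrays, 3 control and 3 manganese. The authors deposited log2 values. Per the submitters' processing notes, Affymetrix Expression Console was the software and RMA the method. RMA gives all arrays one intensity distribution, so a change shared by most genes is removed. Their versions and any scan dates: not given in the sources used here. Arrays give no counting depth, and their number limits the precision.

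Probe sets were named through the platform annotation, updated by Entrez number against RefSeq (GRCh38.p14, 0 symbols changed). Of 49395 probe sets 102 were controls and 44988 had 1 symbol, 1832 had several and 2473 are unnamed here. Past the 40th percentile filter on 3 or more arrays, the brightest probe set stood for a gene. The fit over all 13407 genes used limma 3.58.1 (R 4.3.3; lmFit and eBayes; group alone; two-sided; Benjamini-Hochberg) and was tested on simulated data. Differences are manganese minus control.

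The members, the lists and the alternative settings were chosen with earlier results of these data known. Every member may be named. Array values are given for members with an unadjusted p under 0.05 or separate groups, for VIM, FN1, YAP1, CCN1 and CCN2, and for members set by 1 array, which were added after their values were seen. Where the related lists are read, at most 3 genes per list are given with values, by p. P4HA1 and TMEM38B are named there without values.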

Additional observations from a re-analysis of the deposited data

How the results depend on the processing

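No member passed the threshold with any change of the filter, the variance model, the probe set rule or the replicate block, or against control 2. Centring each array on its median called 2 members, ITGAE and CDH11, and leaving out one array called 0 to 1, ITGAE without control 2. Over all genes 19 were called. Centring called 50, 38 higher and 12 lower against 18 and 1, control 2 alone 5, and leaving out one array 0 to 43, with 0 called without control 3 or any single manganese array. With the replicate block 6 genes and 0 members were called, and in this balanced design the block leaves each fold change as it was. Same-numbered arrays deviated from their group means with correlations of -0.30, 0.15 and -0.27, so the numbers were not taken as pairs. The median of the members was 0.062 against control 2 and -0.075 to 0.017 without one array. Separate groups were found for 21 members against control 2, where only 1 control is compared, and for 11 to 14 without one array. Fewer arrays separate more easily, and the share over all tested genes was not computed for these settings. These counts are therefore not read as a result about the members. Of the related genes 1 was called, P4HA2, after centring and with probe sets averaged, and 0 to 1 without one array.

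Signs turned as follows. Against control 2 they turned for COL4A1 (0.022), LAMA4 (-0.040), LAMB1 (0.11), LAMC1 (0.089), FN1 (0.12), TIMP2 (0.082), ITGA3 (-0.036), ITGB5 (-0.046), CDH2 (0.070), NCAM1 (0.29) and TWIST1 (-0.099). After centring COL6A1 turned (0.0061). The mean of probe sets turned COL6A1 (0.049), TIMP2 (0.19), L1CAM (0.0035) and ZEB1 (-0.28), and the most variable probe set COL6A1 (0.018), TIMP2 (0.44) and ZEB1 (-0.73). The ZEB1 probe sets at -0.73 and -0.69, which both entered its mean, passed the filter only through the controls. Leaving out one array gave both signs for COL6A1 (-0.044 to 0.022), LAMA4 (-0.038 to 0.14), LAMC1 (-0.57 to 0.045), TIMP2 (-0.12 to 0.028), ITGA5 (-0.035 to 0.20), ITGB1 (-0.087 to 0.28), ITGB5 (-0.053 to 0.070), NCAM1 (-0.53 to 0.034), L1CAM (-0.094 to 0.011) and TWIST1 (-0.053 to 0.076). The cause was not tested. VIM, TIMP1, TIMP3, ITGAE and CDH11 kept their sign under every setting that gave them a value. The groups of these genes were separate, so leaving out an array or using control 2 alone could not turn the sign. The kept sign is therefore no support. Other members with smaller differences, such as CCN1 and PRRX1, also kept theirs. CDH11 and TIMP3 did not pass the 60th percentile filter. Genes near the 40th percentile, such as CDH11 and TIMP3, are limited by background.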
